A study of Mus musculus with 18 samples.

Results

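The contractile apparatus of fibroblasts and their response to serum share a set of genes, of which 9 were followed here in MEFs kept in a pair of fetal bovine sera or moved from one to the other. They are Mylk, Acta2, Tagln, Cnn1, Myl9, Tpm1, Ccn1, Ccn2 and Ankrd1, and they were selected by gene name from the 55487 genes of the count table. All 9 passed the filter on low counts that left 15381 genes. The set was proposed because Mylk was low in R-Scm 24 h against Rcm, so that value is a description with no test. No member was therefore tested in a comparison that uses the R-Scm 24 h libraries, and Mylk was not tested in any comparison that uses the Rcm libraries either. All 9 were chosen with earlier results of these data known. Their counts of calls beside the share of all genes are therefore descriptions and not independent support for the set.

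The cells were wild type mouse embryonic fibroblasts of 1 cell line, and the sample titles name no transgene or deletion in any group. Scm is complete medium with S-FBS, the serum in which MEFs are sensitive to ferroptosis, and Rcm is complete medium with R-FBS, the serum in which they resist it. Cultures kept in Scm or in Rcm are labelled as 0 h. S-Rcm cultures left Scm and were collected after 12 h or 24 h of Rcm, and R-Scm cultures left Rcm and were collected after 12 h or 24 h of Scm. Each of the 6 groups had 3 RNA-seq libraries, with total counts of 14534906 to 20313715. Whether replicates came from separate cultures is not given in the labels, so that p-values measure only the spread between these libraries. Nor do the labels say whether the cultures kept in 1 medium received fresh medium when the others were moved, so that a change of serum and the renewal of medium cannot be told apart. No group kept in 1 medium is labelled as 12 h or 24 h. In comparisons of moved with kept cultures, a change of serum and a longer time in culture cannot be told apart either.

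Serum drives these genes by routes that have been described in detail. The transcription factor SRF binds CArG boxes and is activated by its cofactors MRTF-A and MRTF-B (genes Mrtfa and Mrtfb) when actin polymerises. YAP and TAZ (Yap1 and Wwtr1), the coactivators that the Hippo pathway restrains, bind DNA through the TEAD factors. In fibroblasts both routes raise genes of stress fibres and of matricellular proteins, and the smooth muscle genes among them mark myofibroblasts.

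By role, Mylk encodes myosin light chain kinase, Myl9 a regulatory light chain that it phosphorylates, Acta2 smooth muscle alpha-actin, and Tagln, Cnn1 and Tpm1 the actin-binding proteins transgelin, calponin 1 and tropomyosin 1. Ccn1 and Ccn2 encode the secreted matricellular proteins CYR61 and CTGF, and Ankrd1 a nuclear and sarcomeric ankyrin repeat protein, and these 3 are standard readouts of YAP. In GRCm38 the genes lie at chr16:34745210-35002420 (Mylk, plus strand), chr19:34241090-34255590 (Acta2, minus), chr9:45929619-45936058 (Tagln, minus), chr9:22099216-22109630 (Cnn1, plus), chr2:156775420-156781658 (Myl9, plus), chr9:67022590-67049406 (Tpm1, minus), chr3:145646976-145649981 (Ccn1, minus), chr10:24595442-24598683 (Ccn2, plus) and chr19:36111961-36120099 (Ankrd1, minus). Counts are of reads over a gene as a whole, so that isoforms, such as the long and short products of Mylk or the many of Tpm1, were not separated.

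Upstream sequences are shown for 3 genes whose RefSeq promoter window (GRCm38.p6, strand of the gene) holds an exact match to an SRF or TEAD motif and has a stretch free of GENCODE exons of the gene. Capitals mark the match: CATTCC, a TEAD element, in Mylk and Ccn1, and a CArG box in Myl9. The stretches are chr16:34784750-34784920 for Mylk, chr2:156775264-156775419 for Myl9 and chr3:145649986-145650185 for Ccn1, each starting 200 bases before the RefSeq start. The Mylk stretch is inside the gene, before the start of one of its shorter transcripts.
Mylk: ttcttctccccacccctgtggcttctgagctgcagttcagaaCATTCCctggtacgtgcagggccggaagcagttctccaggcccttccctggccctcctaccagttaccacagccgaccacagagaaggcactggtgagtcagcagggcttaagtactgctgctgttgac
Myl9: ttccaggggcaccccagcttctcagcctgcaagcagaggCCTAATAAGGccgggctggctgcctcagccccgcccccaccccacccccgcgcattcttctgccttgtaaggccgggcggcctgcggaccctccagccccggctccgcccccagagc
Ccn1: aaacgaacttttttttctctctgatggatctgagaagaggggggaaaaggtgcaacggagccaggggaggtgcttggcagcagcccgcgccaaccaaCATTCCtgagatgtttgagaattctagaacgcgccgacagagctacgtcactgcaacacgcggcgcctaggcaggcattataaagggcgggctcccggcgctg

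The set of RefSeq promoters used here held a window for 7 of the 9 genes. It had no entry for Tagln and Ccn2, which the counts of matches therefore leave out. CATTCC on either strand (read as GGAATG on the other) was found within 250 bases before to 50 after the start in 5 of the 7, which were Mylk, Acta2, Tpm1, Ccn1 and Ankrd1, and in 14.7% of all 32851 promoters. An exact CArG box was found in 1 of the 7, Myl9, and in 1.63% of all promoters. With 1 mismatch allowed, Acta2, Myl9 and Tpm1 held a CArG box, 3 of 7 against 21.1% of all promoters. The windows of Acta2, Ankrd1 and Tpm1 lie for 200, 200 and 193 of their last 200 bases before the start within a GENCODE exon of the gene and are not printed. These matches describe letters in a window, and binding was not measured.

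The labels call the cells embryonic fibroblasts, and the counts bore that out: all 10 fibroblast markers (among them Col1a1, Col1a2, Vim and Fn1) passed the filter, with a summed level of 9620 to 13730 CPM per library (CPM are counts relative to the total of the library, scaled by TMM). Of 13 genes listed as specific to smooth muscle, 7 passed, among them Smtn with group means of 93.7 to 113 CPM and Itga8 with 31.8 to 68.1 CPM. Among those that did not pass, Myh11, smooth muscle myosin heavy chain, had 0 to 5 counts, Des, desmin, 0 to 6, and Kcnmb1 0 to 3. Myocd, the SRF cofactor of smooth muscle, had 0 counts in 17 libraries and 3 in 1. Endothelial and epithelial markers summed to at most 3.25 CPM and 1.47 CPM in any library, and macrophage, skeletal muscle and cardiac muscle markers to at most 5.21 CPM, 4.87 CPM and 3.39 CPM. The pericyte list reached 51.8 to 73.7 CPM, nearly all of it Cspg4, with the other 3 of its genes at 3 counts or fewer in every library. The groups are bulk samples, so that fewer cells that express a gene and less RNA per cell cannot be told apart.

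To compare genes, levels were also set per kilobase of exon. The length joins the exons of all annotated transcripts, so that genes with long and short isoforms, such as Mylk and Tpm1, can appear too low. Acta2 had the highest mean of the 9 genes in Scm, 342 ± 21.8 (SD, n = 3) CPM per kb, before Ccn1 with 197 ± 4.97 and Tpm1 with 127 ± 7.29. Ccn2 (56.8 ± 1.58) and Tagln (45.7 ± 3.30) followed, and Ankrd1 stood at 6.62 ± 1.49. Myl9 (2.92 ± 0.841), Cnn1 (1.09 ± 0.272) and Mylk (0.250 ± 0.0498) were low, so that the abundant smooth muscle actin went with little calponin and little of the kinase. The least abundant of the 9, Mylk, was counted in 41 to 176 reads per library, Cnn1 in 32 to 149 and Myl9 in 43 to 135. The counting error of these 3 genes is thus larger than that of Acta2, which had 10839 to 33098 counts per library.

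**Figure D1:**
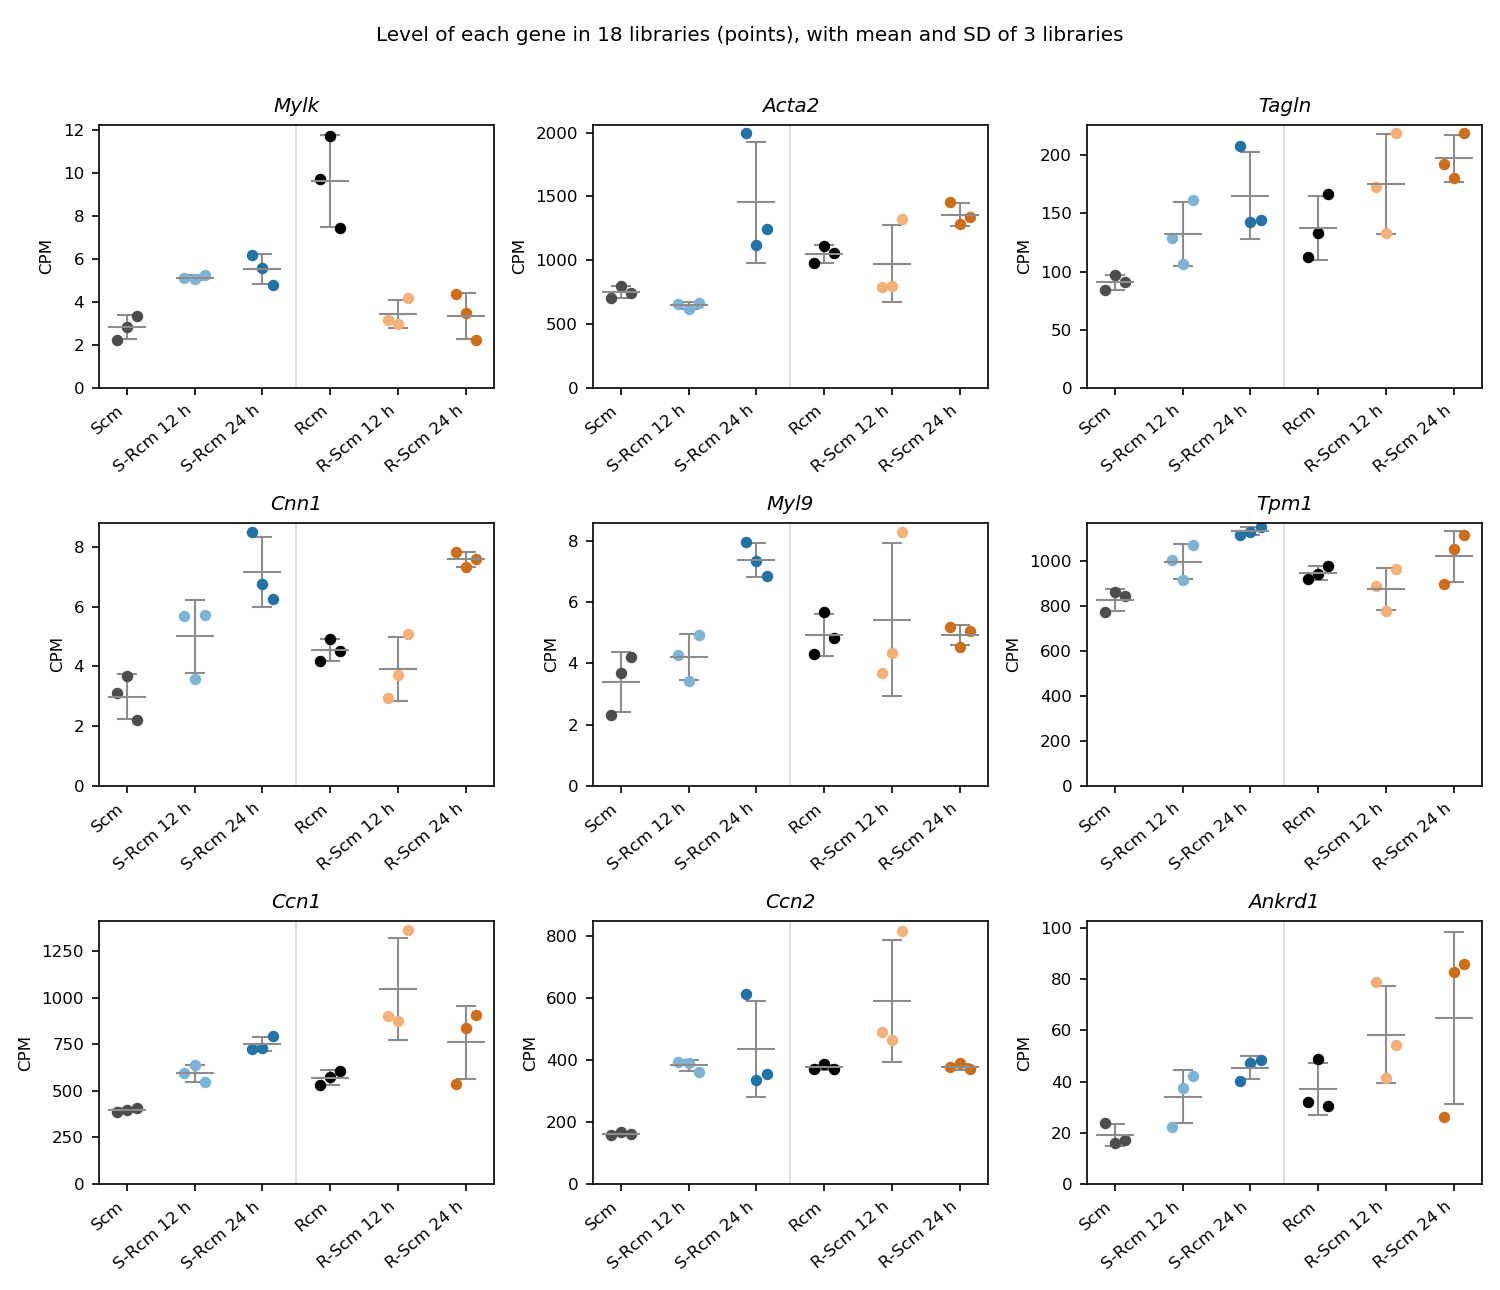
CPM (linear axes from 0) of each of the 9 genes in every library (points), with the mean and SD of 3 libraries (grey bars), for Scm and the move to Rcm on the left and for Rcm and the move to Scm on the right of each panel. Mylk is highest in Rcm and lower in all 3 R-Scm 24 h libraries, while the other 8 genes are not lower in R-Scm 24 h than in Rcm on average by more than the spread between libraries.

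Mylk was high in Rcm and low in Scm. It stood at 2.25, 2.84 and 3.37 CPM in Scm and at 9.73, 11.7 and 7.42 CPM in Rcm. No library of one group reached the other, and the fitted log2 fold change was 1.77 (SE 0.24). After the move to Scm it was at 3.17, 2.98 and 4.17 CPM at 12 h and at 4.36, 3.47 and 2.24 CPM at 24 h. All 6 R-Scm libraries were below all 3 Rcm libraries and overlapped with those of Scm. The log2 fold change against Rcm was -1.48 (SE 0.23) at 12 h and -1.52 (SE 0.23) at 24 h, and these values, on which the choice of the gene rests, have no test.

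In the opposite move Mylk lay between the groups kept in 1 serum, with 5.09, 5.04 and 5.27 CPM after 12 h of Rcm and 6.20, 5.59 and 4.81 CPM after 24 h. Every S-Rcm library was above every Scm library and below every Rcm library. Against Scm the log2 fold change was 0.87 (SE 0.24) at 12 h and 0.98 (SE 0.24) at 24 h. Neither passed in edgeR's quasi-likelihood test (Benjamini-Hochberg adjusted p = 0.0942 and 0.102), and both passed in DESeq2 on the 18 libraries (adjusted p = 0.0333 and 0.0188). Here and below a gene is said to be called when its absolute log2 fold change was above 0.58 and its adjusted p over all genes tested was under 0.05. In order of its mean, Mylk went from Scm, R-Scm 24 h and R-Scm 12 h, which overlapped, to S-Rcm 12 h and S-Rcm 24 h, which overlapped, to Rcm, which stood apart.

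The exons of Mylk share 548 bases with those of E130310I04Rik, an antisense gene of the opposite strand with a median count of 22.5 per library. Use of strand in the counting is not given in the sources used here, so that reads of the pair cannot be told apart. With both counts summed, the log2 fold change of Mylk in R-Scm 12 h against Rcm was -1.05 in place of -1.48. Over this and the other alternatives of processing, its smallest size in R-Scm 24 h against Rcm was -1.13, in place of -1.52. In Rcm against Scm the smallest was 1.53, in place of 1.77.

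The 3 genes whose pattern over the 18 libraries was most like that of Mylk were found by correlation (Pearson correlation of log2 CPM, over the 13534 genes tested whose mean reached 1 CPM), and were Loxl2 (r = 0.895), a lysyl oxidase that cross-links collagen, Acadl (r = 0.875), long-chain acyl-CoA dehydrogenase, and Ankrd44 (r = 0.862). Loxl2 had a mean of 42.3 ± 0.578 CPM in Scm, 103 ± 3.58 in Rcm and 61.5 ± 19.0 in R-Scm 24 h (SD, n = 3). These correlations are descriptions over libraries that share their groups and carry no p.

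Between MEFs kept in Rcm and in Scm all 9 genes were higher in Rcm, and no library of one group overlapped with the other for any of them. Over all genes tested, 23.9% had groups apart in either direction, and the call rate was 2.3%. Of the 8 genes that could be tested, 1 was called. Ccn2 rose from 159, 168 and 161 CPM in Scm to 372, 387 and 371 CPM in Rcm, with an SD under 10 CPM in each group. The log2 fold change was 1.21 (SE 0.21, edgeR adjusted p = 0.00342).

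The other 7 tested genes had smaller or less certain differences. Ankrd1 had a log2 fold change of 0.95 (SE 0.39, edgeR adjusted p = 0.24), with 24.0, 16.2 and 17.1 CPM in Scm and 32.2, 48.7 and 30.5 CPM in Rcm. Tagln and Cnn1 were each at 0.60 (SE 0.20 and 0.24), Myl9 at 0.55 (SE 0.27) and Ccn1 at 0.52 (SE 0.17). Acta2 was at 0.48 (SE 0.19) with 706, 801 and 745 CPM in Scm and 975, 1114 and 1055 CPM in Rcm, and Tpm1, at 0.20 (SE 0.10), had the smallest difference of the 9. None of these 7 was called by edgeR, though 5 of them, all but Myl9 and Tpm1, had an unadjusted p under 0.05. Their median, with Ccn2 and Mylk included, was 0.60 on the log2 scale, beside 0.01 over all genes tested.

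For cultures that left Scm for Rcm, the comparisons with Scm are given by time. At 12 h only Ccn2 was called of the 9, and 0.858% of all genes tested were. Ccn2 stood at 395, 392 and 363 CPM, a log2 fold change of 1.24 (SE 0.21, edgeR adjusted p = 0.00757) against Scm, and the 371 to 387 CPM of Rcm lay within this range. Acta2 went the other way in each library, with 659, 616 and 668 CPM below the lowest Scm library (706 CPM), yet by a log2 fold change of only -0.21 (SE 0.19, edgeR adjusted p = 0.689). The call of Ccn2 was lost without Scm replicate 1 (adjusted p = 0.0537) and without Scm replicate 3 (adjusted p = 0.0503), with log2 fold changes of 1.23 each.

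Cnn1, calponin, was at 5.70, 3.59 and 5.74 CPM in S-Rcm 12 h and at 3.10, 3.67 and 2.20 CPM in Scm, so that the groups overlapped. Its log2 fold change of 0.74 (SE 0.24) and those of Tagln (0.54, SE 0.20), Ccn1 (0.58, SE 0.17), Ankrd1 (0.83, SE 0.38), Myl9 (0.32, SE 0.28) and Tpm1 (0.27, SE 0.10) had edgeR adjusted p of 0.118 to 0.666. Of the 9, 5 were apart above Scm, 1 was apart below it and 3 overlapped, beside 26.4% of all genes apart.

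At 24 h in Rcm, 4 of the 9 were called against Scm, with 0.338% of all genes called, and all 9 were higher than Scm with no overlap (19.5% of all genes were apart in either direction). Ccn2 stood at 614, 337 and 354 CPM, a log2 fold change of 1.42 (SE 0.21, edgeR adjusted p = 0.00871). Cnn1 rose to 8.49, 6.76 and 6.26 CPM (1.26, SE 0.23, adjusted p = 0.0223), and Ccn1 rose from 389, 398 and 409 CPM to 725, 731 and 795 CPM (0.91, SE 0.17, adjusted p = 0.0223). Acta2 rose to 1994, 1117 and 1249 CPM (0.95, SE 0.20, adjusted p = 0.0425). These genes comprise an actin, a protein that binds actin and both matricellular genes.

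The other 5 at 24 h missed the adjusted p or the fold threshold. Tpm1 passed the adjusted p alone, at 0.0485, with a log2 fold change of 0.45 (SE 0.10). Myl9 stood at 7.95, 7.32 and 6.83 CPM beside 2.30, 3.67 and 4.19 CPM in Scm, a log2 fold change of 1.13 (SE 0.27, edgeR adjusted p = 0.0931). Tagln was at 0.86 (SE 0.20, adjusted p = 0.0777) and Ankrd1 at 1.24 (SE 0.39, adjusted p = 0.268). DESeq2 on the 18 libraries called 8 of the 9, all but Tpm1.

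The calls at 24 h rest on every library of the comparison: leaving out any 1 of the 6 left 0 to 2 calls, while the log2 fold changes of the 4 genes stayed between 0.66 and 1.57. Without S-Rcm 24 h replicate 1, which had the highest Acta2 of all 18 libraries, Acta2 was at 0.66 (adjusted p = 0.187), and only Ccn2 was called.

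**Figure D2:**
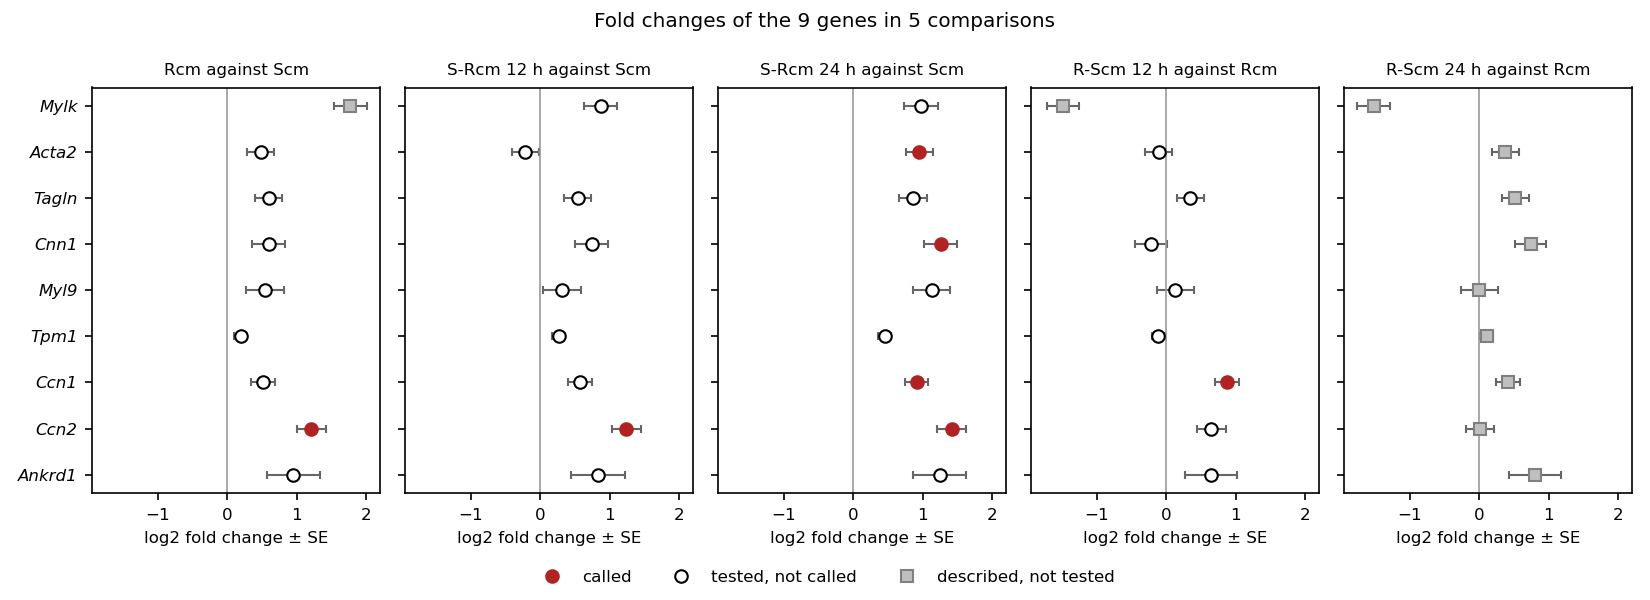
Log2 fold change and SE of the 9 genes in 5 comparisons. Red circles were called, open circles were tested and not called, and grey squares are values with no test. From left to right the first 4 panels hold 1, 1, 4 and 1 red circles. The 3 panels on the left share their Scm libraries and the others their Rcm libraries, so that they are not independent.

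Between the time points of the move to Rcm, Acta2 was called of the 9, and 0.156% of all genes were. It rose by a log2 fold change of 1.17 (SE 0.20, edgeR adjusted p = 0.0215), from its lowest group mean of 648 ± 28.0 CPM at 12 h to its highest of 1453 ± 473 CPM at 24 h (SD, n = 3). Every 24 h library was above every 12 h library, although the 3 libraries of 24 h spread from 1117 to 1994 CPM. Without S-Rcm 24 h replicate 1 the log2 fold change was 0.87 and the call was lost (adjusted p = 0.0867), as it was without any 1 of the S-Rcm 12 h libraries (adjusted p = 0.0813 to 0.123). Myl9 was at 0.81 (SE 0.27, adjusted p = 0.287) and Cnn1 at 0.52 (SE 0.22, adjusted p = 0.483), both apart. Ccn1 (0.34, SE 0.17) and Tpm1 (0.18, SE 0.10) were apart as well and not called. With Acta2, 5 of the 9 were thus apart and 4 overlapped, beside 17.2% of all genes apart in either direction.

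Set against MEFs kept in Rcm, 24 h in Rcm after Scm gave 0 calls by edgeR among the 8 genes tested, and 0 by DESeq2 on the 18 libraries. The call rate over all genes was 0.221%, and 5 of the 8 had an unadjusted p under 0.05 in edgeR. Those 5, Acta2, Cnn1, Myl9, Tpm1 and Ccn1, had log2 fold changes of 0.26 to 0.66 and were higher in each S-Rcm 24 h library than in each Rcm library. Mylk, with no test, was at -0.79 (SE 0.23) and lower in each library. Of all genes tested, 12.8% were apart in either direction. Without S-Rcm 24 h replicate 1 the log2 fold change of Acta2 was 0.18 (edgeR adjusted p = 0.701).

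After 12 h in Scm following Rcm, Ccn1 stood higher still, while the Mylk libraries were below those of Rcm and overlapped with those of Scm. Ccn1 was called of the 8 tested, and 2.74% of all genes were. The groups were apart in either direction for 23.4% of all genes tested. It rose from 530, 575 and 609 CPM in Rcm to 900, 874 and 1362 CPM (0.87, SE 0.17, edgeR adjusted p = 0.00702), its highest group mean. Without R-Scm 12 h replicate 3, the highest library, it was at 0.64 (adjusted p = 0.0397).

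Ccn2 was likewise higher in each R-Scm 12 h library, with 491, 466 and 817 CPM beside 371 to 387 CPM in Rcm. The difference of 0.65 (SE 0.20) on the log2 scale had an adjusted p of 0.0847 in edgeR and 0.0329 in DESeq2 on the 18 libraries, and without replicate 3 it was 0.35 (adjusted p = 0.419). Ankrd1 was at 78.8, 41.6 and 54.2 CPM, with overlap (0.65, SE 0.38, adjusted p = 0.405). The contractile genes other than Mylk were within 0.35 of Rcm on the log2 scale, with edgeR adjusted p of 0.384 to 0.85 and overlapping libraries. For Acta2 the difference of -0.11 turned to 0.020 without R-Scm 12 h replicate 1, and for Myl9 0.13 turned to -0.30 without replicate 3.

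At 24 h in Scm the values against Rcm are given without a test. Cnn1 stood at 7.83, 7.32 and 7.59 CPM beside 4.18, 4.92 and 4.52 CPM in Rcm (0.74, SE 0.23), and Acta2 at 1454, 1282 and 1337 CPM (0.37, SE 0.19). Both were higher in each library, as was Tagln, with 192, 180 and 219 CPM beside 112 to 167 CPM (0.52, SE 0.20). Thus 3 of the 9 were apart above Rcm, Mylk was apart below it and 5 overlapped. Over all genes tested 11.2% were apart in either direction.

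Ccn2 was near the level of Rcm at 24 h, with 377, 390 and 370 CPM and a log2 fold change of 0.01 (SE 0.20). Ccn1 spread over 537, 838 and 906 CPM (0.41, SE 0.17) and Ankrd1 over 26.1, 82.9 and 85.7 CPM (0.81, SE 0.38). In both, replicate 1 was the low library and lay within the range of Rcm or below it. From 12 h to 24 h Ccn2 was lower in each library (-0.64, SE 0.20), and Cnn1 was higher in each library (0.96, SE 0.23), with no test. The other 7 overlapped, and 15.2% of all genes tested were apart in either direction.

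Against MEFs kept in Scm, those moved from Rcm into Scm for 24 h were higher for 8 of the 9 genes in each library, by log2 fold changes of 0.31 (Tpm1) to 1.76 (Ankrd1, SE 0.39). Mylk, at 0.25 (SE 0.25), was the exception and overlapped. The share of all genes apart in either direction was 14.9%. The fold changes of Cnn1 (1.34, SE 0.23), Ccn2 (1.22, SE 0.21), Tagln (1.12, SE 0.20), Ccn1 (0.93, SE 0.17), Acta2 (0.86, SE 0.20) and Myl9 (0.55, SE 0.27) lay between, and have no test. In Scm the lowest group mean of the 9 genes was found for all but Acta2, whose lowest was S-Rcm 12 h.

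The difference between the moves at 12 h was tested as an interaction, the fold change of R-Scm 12 h against Rcm less that of S-Rcm 12 h against Scm. Among the 8 genes tested, 0 were called by edgeR and 0 by DESeq2 on the 18 libraries, beside 2.03% of all genes. An unadjusted p under 0.05 was seen in 2 of them, Cnn1 (-0.96, SE 0.33, edgeR adjusted p = 0.165) and Tpm1 (-0.38, SE 0.13, adjusted p = 0.176). For Ccn1 and Ccn2 both moves had fold changes above 0, with a difference of 0.30 (SE 0.24) and -0.59 (SE 0.29). Mylk had the largest difference of the 9, -2.35 (SE 0.33), with no test.

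Libraries of 1 group did not deviate alike in all 9 genes. S-Rcm 24 h replicate 1 was above its group mean by 0.55 in Ccn2, 0.50 in Acta2 and 0.36 in Tagln on the log2 scale, and R-Scm 12 h replicate 3 by 0.51, 0.48 and 0.35 in the same genes. The latter was also high in Myl9 (0.69) and Ccn1 (0.41). In R-Scm 24 h replicate 1, Ankrd1 was 1.12 below its group mean and Ccn1 0.47 below it, whereas Acta2 and Ccn2 were near theirs.

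Deviations from the group means of Acta2 and Ccn2 went together over the 18 libraries (Pearson r = 0.952), a pair chosen after its values were seen. Without S-Rcm 24 h replicate 1 and R-Scm 12 h replicate 3 the correlation was 0.227 over 16 libraries, so that it rests on these. The genes whose levels were most like Ccn2 over the 18 libraries were Thbs1 (r = 0.961), thrombospondin 1, Tgfb2 (r = 0.918), a TGF-beta ligand, and Htr1b (r = 0.905), a serotonin receptor. Those most like Acta2 were Msrb3 (r = 0.922), a methionine sulfoxide reductase, Col5a2 (r = 0.884), a chain of type V collagen, and Mical2 (r = 0.876), an actin-oxidising enzyme. Thbs1 had 2241 ± 573 CPM in R-Scm 12 h, 1608 ± 99.6 in Rcm and 802 ± 45.0 in Scm (SD, n = 3).

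**Figure D3:**
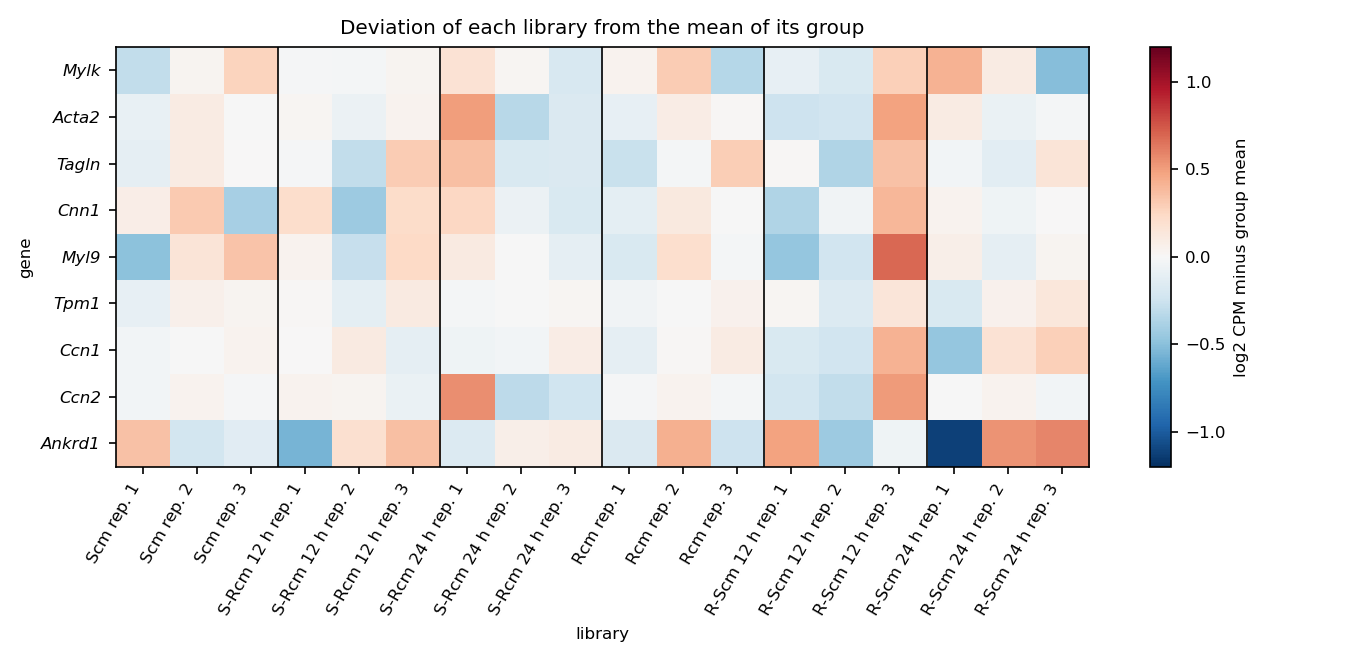
Log2 CPM of each of the 9 genes (rows) in each library (columns) minus the mean of its group, in red above and in blue below it. Acta2, Tagln and Ccn2 are red together in S-Rcm 24 h replicate 1 and R-Scm 12 h replicate 3, and Ankrd1 is deep blue in R-Scm 24 h replicate 1.

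Other genes of the same pathways were counted in lists of textbook members. Of 25 cytoskeletal SRF targets, 24 were tested, with a median log2 fold change of 0.03 for Rcm, -0.08 for S-Rcm 12 h and 0.20 for S-Rcm 24 h, each against Scm. Against Rcm the median was 0.15 for R-Scm 12 h and 0.23 for R-Scm 24 h, and in the latter 22 of the 24 were above 0. Calls numbered 1 up and 1 down between the kept cultures, and, against Rcm, 3 up at 12 h and 1 up at 24 h in Scm, where 0.377% of all genes were called. Against Scm, edgeR called 0 after 12 h and 0 after 24 h in Rcm, with 5 and 10 at an unadjusted p under 0.05, and DESeq2 on the 18 libraries called 0 and 3. Fhl1, a LIM-domain protein of muscle, rose in Rcm against Scm (0.81, SE 0.18, edgeR adjusted p = 0.0199) and stood higher still after the move from Rcm into Scm, by 0.71 (adjusted p = 0.0283) at 12 h and 0.85 (adjusted p = 0.0451) at 24 h against Rcm. Csrp2, another LIM-domain protein, fell by 0.63 in Rcm (adjusted p = 0.0351). Tgfb1i1 (0.61) and Zyx (0.59), proteins of focal adhesions, rose in R-Scm 12 h, and Csrp1 (0.83, SE 0.11, adjusted p = 0.00182) rose from S-Rcm 12 h to 24 h.

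The smooth muscle list had a median of 0.57 in Rcm against Scm and of 0.76 in S-Rcm 24 h against Scm over its 7 tested genes, among them Actg2, Lmod1 and Itga8. Calls by edgeR were 0 in both, with 3 and 2 genes at an unadjusted p under 0.05, and DESeq2 on the 18 libraries called 0 and 2. The summed level of the 13 genes, most of it Smtn and Itga8, was 131 to 141 CPM in Scm and 155 to 161 CPM in Rcm. It was 139 to 155 CPM at 12 h and 169 to 172 CPM at 24 h after the move to Rcm, and 158 to 201 CPM and 143 to 158 CPM after the move to Scm. Myh11, Des and Kcnmb1 stood near 0 in every group. The part of such cells in the levels of the 9 genes was not tested.

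Among the immediate early SRF targets, which serum induces rapidly and briefly, Egr3 was the only gene of the 8 tested that edgeR called. This transcription factor fell by 1.83 (SE 0.30, edgeR adjusted p = 0.0027) in Rcm, by 1.44 (SE 0.30, adjusted p = 0.0256) after 12 h of the move to Rcm and by 1.56 (SE 0.30, adjusted p = 0.027) after 24 h, each against the same Scm libraries. The median of the list was -0.37 between the kept cultures. It was 0.33 in R-Scm 12 h against Rcm, where all 8 were above 0. There 0 were called by edgeR and by DESeq2 on the 18 libraries, and 1 had an unadjusted p under 0.05 in edgeR. The libraries did not rise alike: the summed level of the list spread from 458 to 946 CPM in R-Scm 12 h, beside 477 to 597 CPM in Rcm. The lowest R-Scm 12 h library was thus below every Rcm library in this sum.

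Among 19 other YAP targets, calls were few. F3, tissue factor, rose in R-Scm 12 h against Rcm (1.24, SE 0.22, edgeR adjusted p = 0.00387), and Igfbp3 fell by 0.87 from S-Rcm 12 h to 24 h (adjusted p = 0.0369). The medians of the list lay between -0.08 and 0.13 in the 5 comparisons with the groups kept in 1 serum. In Rcm against Scm, 0 of the 19 were called by edgeR, beside log2 fold changes of 0.52 for Ccn1 and 1.21 for Ccn2. The other CCN genes, 3 of 4 tested, had a median of 1.12 there with 0 called by edgeR, 2 at an unadjusted p under 0.05 and 2 called by DESeq2 on the 18 libraries.

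Among the TGF-beta readouts, Ltbp2, a protein that binds latent TGF-beta, rose in R-Scm 12 h against Rcm by 1.29 (SE 0.16, edgeR adjusted p = 0.000214), and Smad7, the inhibitory SMAD, by 1.14 (SE 0.25, adjusted p = 0.0135). Ltbp2 was still higher at 24 h (0.86, adjusted p = 0.0232). Of the 12 readouts tested, edgeR called 3 in R-Scm 12 h against Rcm, beside 2.74% of all genes. The median of the list was 0.26 there. Against Scm, edgeR called 0 in Rcm, S-Rcm 12 h and S-Rcm 24 h, with medians of -0.05, -0.04 and 0.01. An unadjusted p under 0.05 was seen in 4, 1 and 2 of them in edgeR.

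For the mRNA of the factors themselves no call was made. For Srf, Mrtfa, Mrtfb, Yap1 and Wwtr1, edgeR and DESeq2 on the 18 libraries each gave 0 calls in the 9 comparisons of groups and the interaction, although up to 3 of the 5 genes in a comparison had an unadjusted p under 0.05 in edgeR. Mrtfa passed the adjusted p alone in R-Scm 24 h against Rcm, with a log2 fold change of 0.45 (SE 0.09, edgeR adjusted p = 0.0462). Srf was at 0.39 (SE 0.12, edgeR adjusted p = 0.0706) in R-Scm 12 h and 0.43 (SE 0.12, adjusted p = 0.126) in R-Scm 24 h against Rcm. Yap1 lay between -0.08 and 0.09 in the 9 comparisons of groups. Of the TEAD factors, Tead4 fell by 0.60 in Rcm against Scm (SE 0.14, adjusted p = 0.0277).

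**Figure D4:**
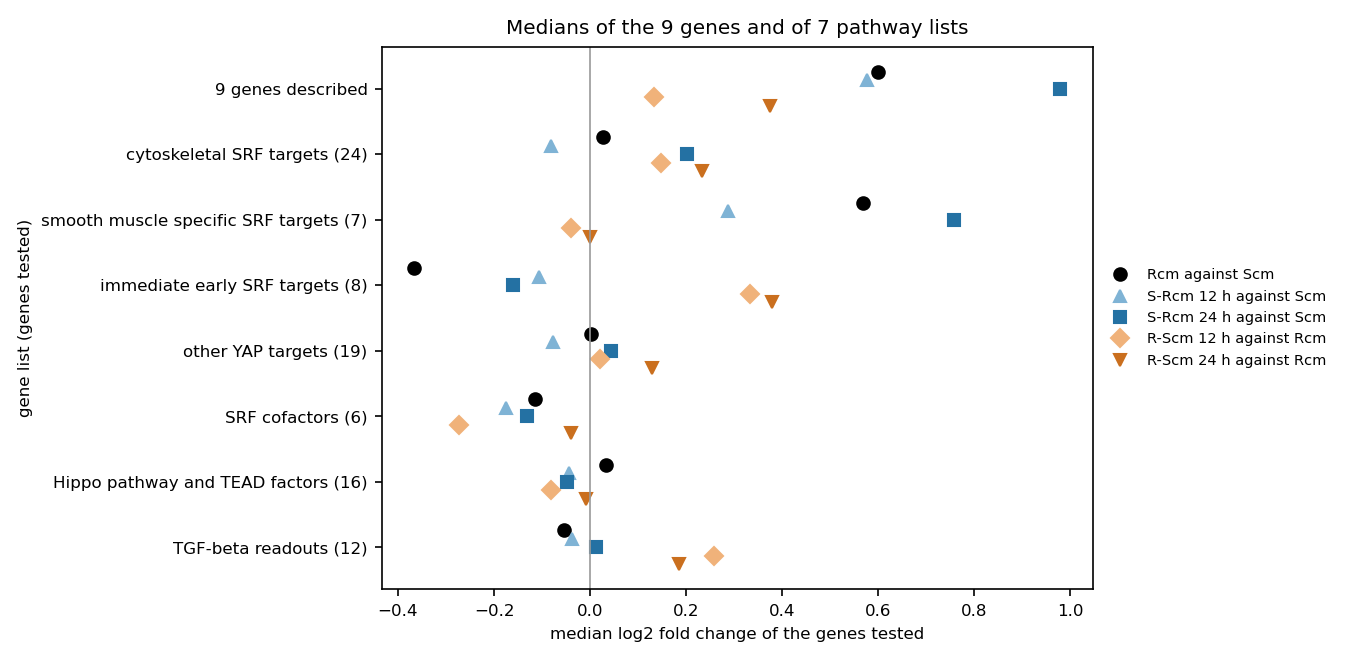
Median log2 fold change of the 9 genes (top row) and of the tested genes of 7 pathway lists (number tested in brackets) in 5 comparisons. The 9 genes, chosen with results of these data known, have medians of 0.60 in Rcm against Scm and 0.98 in S-Rcm 24 h against Scm, while the medians of the other YAP targets lie between -0.08 and 0.13.

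Of the 10 fibroblast markers, 3 were called between groups, in 1 comparison each. Col3a1, the chain of type III collagen, rose in Rcm against Scm (1.5, SE 0.34, edgeR adjusted p = 0.0271), Thy1 rose in S-Rcm 12 h against Scm (0.71, SE 0.12, adjusted p = 0.00657) and Pdgfrb fell by 0.72 in R-Scm 12 h against Rcm (adjusted p = 0.0394). The summed level of the 10 fibroblast markers was 10165 to 10539 CPM in Scm and 12257 to 12753 CPM in Rcm. Their part in the differences of the 9 genes was not tested.

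The counts of 2 other members also meet a gene on the opposite strand. Exons of Tagln share 1241 bases, 62.4% of their length, with Gm48529, an antisense gene with a median count of 162.5 per library, and 108 bases with Pcsk7. Exons of Ccn2 share 665 bases, 23.2% of their length, with Gm15270, which had a median count of 14. The values of Tagln and Ccn2 may therefore hold reads of these partners or lack reads given to them.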

How the data were processed

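RNA was extracted with the RNeasy mini kit, and paired-end reads (NovaSeq) were aligned by the authors to GRCm38 with HISAT2. The deposited values are raw counts of reads per gene, whole numbers without normalization, in 18 libraries. The tool and the use of strand behind the counting are not given in the sources used here. The members and the pathway lists were chosen with earlier results of these data known. Groups and replicate numbers were taken from the titles, and no column was left out.

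Genes were filtered with filterByExpr by group (15381 of 55487 kept) and scaled with TMM. A quasi-likelihood model (edgeR 4.0.16, R 4.3.3, robust) was fitted to all 18 libraries, with Benjamini-Hochberg adjustment over all genes tested, after the script was tested on simulated data. Log2 CPM used a prior count of 2. The SE is the absolute log2 fold change divided by the root of the F statistic. DESeq2 1.42.0, other scalings and filters, a replicate block, the compared groups alone and each library left out were alternatives. Replicate pairs differed by more than counting noise.

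Named genes were all 9 members, at most 3 called genes of each direction per list and comparison, the 5 factors, and the 3 genes most correlated with Mylk, Acta2 and Ccn2. Positions and exon lengths came from GENCODE M21 (GRCm38), and promoters from RefSeq (GRCm38.p6). Markers of other cell types are named for a check of the cells and lie outside that rule. Results for a few listed genes are not reported here.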

Additional observations from a re-analysis of the deposited data

Results flagged for a closer look

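Mylk moved opposite ways in the exchanges: each R-Scm 12 h library was below each Rcm library and each S-Rcm 12 h library above each Scm library, a difference of -2.35 in log2 fold change. This difference was not tested, since Mylk was chosen on Rcm libraries. With the counts of E130310I04Rik added it was -1.93.

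Of the genes in the pathway and marker lists, 6 had a called difference between the exchanges at 12 h (edgeR interaction, R-Scm 12 h against Rcm less S-Rcm 12 h against Scm). Over all genes tested the call rate was 2.03%. By list, the calls were 3 of 24 cytoskeletal SRF targets tested, 1 of 8 immediate early SRF targets, 1 of 12 TGF-beta readouts and 1 of 10 fibroblast markers. No gene of the other lists was called. The difference was 1.70 for Egr3 (SE 0.42, adjusted p = 0.0453), 1.24 for Ltbp2 (SE 0.22, adjusted p = 0.00633), 0.81 for Zyx (SE 0.17, adjusted p = 0.0202), 0.67 for Fhl2 (SE 0.15, adjusted p = 0.0275) and 0.60 for Tgfb1i1 (SE 0.15, adjusted p = 0.0402). It was -2.05 for Col3a1 (SE 0.47, adjusted p = 0.0345).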

How the results depend on the processing

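Groups held 3 libraries, and the least counted member, Cnn1, had 32 counts in its lowest library. The 9 genes gave 1, 1, 1, 4, 1 and 0 calls in Rcm against Scm, R-Scm 12 h against Rcm, S-Rcm 12 h against Scm, S-Rcm 24 h against Scm, S-Rcm 24 h against S-Rcm 12 h and S-Rcm 24 h against Rcm. DESeq2 on the compared groups alone gave 3, 2, 3, 8, 2 and 0, and DESeq2 on the 18 libraries 1, 2, 2, 8, 1 and 0. EdgeR on the compared groups alone gave 0 in R-Scm 12 h, 2 in S-Rcm 12 h and 0 between the S-Rcm time points. Leaving out 1 library at a time gave 0 to 1 call in S-Rcm 12 h and between the S-Rcm time points, and 0 to 2 in S-Rcm 24 h against Scm. The cause of these shifts was not tested, beyond the fewer libraries of the last. RLE or upper-quartile scaling and at least 10 counts in every library left these counts as they were and moved the all-gene median by under 0.05. Calls of the pathway lists over 9 comparisons, with a gene on several lists counted once in each comparison, numbered 20, with 39 in DESeq2 on the 18 libraries, 59 in DESeq2 on the compared groups, and 10 to 43 with 1 library left out (10 without Rcm replicate 1 or 2, 12 or 13 without a Scm library, and 43 without R-Scm 24 h replicate 1). CArG boxes were found in 1 promoter, and in 3 with 1 mismatch.

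In no comparison were all 3 same-numbered correlations of deviations above 0.1, though those of R-Scm 24 h against Rcm were 0.085, 0.16 and 0.35. The numbers used were those of the titles. In S-Rcm 24 h, R-Scm 12 h and R-Scm 24 h some of the deposited columns carry other numbers than the titles. Neither this check nor a replicate block can therefore exclude that the libraries were paired. With a replicate block in the fit, S-Rcm 24 h against Scm gave 3 calls in place of 4 (Acta2 at 0.94, adjusted p = 0.0667), the other counts of member calls stayed, and the lists had 19 calls.

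Signs turned in values near 0 when 1 library was left out. Over the libraries left out, Acta2 ranged from -0.39 to 0.020 in R-Scm 12 h against Rcm (0.020 and 0.014 without R-Scm 12 h replicates 1 and 2) and from -0.18 (without replicate 3) to 0.23 in its difference between the exchanges. Myl9 ranged from -0.30 (without R-Scm 12 h replicate 3) to 0.35 in R-Scm 12 h, and from -0.62 to 0.040 in the difference, with 0.040 without Scm replicate 1 and 0.031 with R-Scm 12 h replicate 1 left out. The difference for Ankrd1 ranged from -0.46 to 0.060, and was above 0 without Rcm replicate 2 (0.060), R-Scm 12 h replicate 2 (0.011) or S-Rcm 12 h replicate 3 (0.0018). Ccn2 in S-Rcm 24 h ranged from -0.15 to 0.33 against S-Rcm 12 h and from -0.12 to 0.36 against Rcm, both lowest without S-Rcm 24 h replicate 1. The correlation of Acta2 with Ccn2 within groups without 2 libraries was chosen after seeing the data.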
